A study of Mus musculus with 13 samples.

Results

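Aminoacyl-tRNA synthetases were followed through RNA-seq of sorted mouse thymocytes. The members were chosen by name alone, as protein-coding genes whose symbol is 1 letter of the amino acid code followed by ars, arsl2 or ars2, together with Farsa, Farsb and Eprs, and without Lars2. This gave 37 of the 47937 genes in the count table, 21 for cytosolic and 16 for mitochondrial enzymes. Lars2 was left out because ribosomal RNA-like reads fall on it, and it stood at 84233 unscaled CPM in the DN3 library of mouse WT05 against 386 to 2017 in the other libraries. The thymocytes came from the CD4-CD8- stages DN3 and DN4, which precede and follow β-selection, the checkpoint for a productive T cell receptor β chain. All mice were 6 weeks old, of the C57BL/6 strain, and carried Lck-Cre, in which the Lck promoter drives Cre recombinase in the T lineage. Controls (Wt;Lck-Cre+, called Wt) gave 3 DN3 libraries, from WT05, WT46 and WT48, and 4 DN4 libraries, from these mice and WT40. Opa1fl/fl;Lck-Cre+ mice KO45, KO49 and KO51 gave 3 DN3 and 3 DN4 libraries and are called KO-labelled, since the deleted Opa1 exons could not be seen in whole-gene counts. OPA1 fuses the inner mitochondrial membrane and shapes its cristae.

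An aminoacyl-tRNA synthetase joins an amino acid to its tRNA, so that the ribosome can place that amino acid at the matching codon. Cytosolic enzymes serve translation of nuclear-encoded mRNAs. Mitochondrial enzymes, marked by a 2 at the end of the symbol, are encoded in the nucleus, imported, and charge the tRNAs with which mitochondria translate the respiratory chain subunits of mtDNA. The exceptions to this naming are Tarsl2, another cytosolic threonyl enzyme, and Kars and Gars, whose genes make both a cytosolic and a mitochondrial form and were counted here as cytosolic. Of the members, 18 have the class I and 19 the class II catalytic fold, and 8 cytosolic enzymes (Dars, Eprs, Iars, Kars, Lars, Mars, Qars and Rars) assemble with 3 scaffold proteins into the multi-synthetase complex. ATF4, the transcription factor of the integrated stress response, is known to induce many cytosolic synthetase genes.

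Libraries held 5926848 to 14148661 counts, and the 37 members together took 0.249% to 0.474% of them. The DN3 library of WT05 was the shallowest and had 35.4% of its counts on 361 ribosomal RNA-like genes, against 0.397% to 1.58% in the others. Opa1 stood at 88.6 to 93.8 CPM in KO-labelled and 91.1 to 112 CPM in Wt DN3 libraries, and at 77.0 to 87.9 CPM in KO-labelled and 85.1 to 93.8 CPM in Wt DN4 libraries, so whole-gene counts did not separate the genotypes. CPM, the usual depth-normalised counts, were computed on library sizes scaled by the TMM method. Xist counts were 0 to 2 in the libraries of WT40 and WT46 and 10672 to 20604 in all others, so that sex was not balanced between the genotypes. The summed level of 7 DN3 markers (Il2ra, Ptcra and Rag1 among them) was 3134 to 4327 CPM in DN3 and 802 to 1453 CPM in Wt and 1235 to 2248 CPM in KO-labelled DN4 libraries. A summed level of 6 B-cell markers (Cd79a, Cd79b, Ms4a1, Pax5, Blk and Ighm) was 307 to 447 CPM in DN3 libraries and 1049.5 to 4439.7 CPM in Wt and 890.1 to 2824 CPM in KO-labelled DN4 libraries, highest in WT48; none of these markers was at 0 in all libraries. The summed level of 7 T-lineage markers was 4747 to 7287 CPM in all libraries, lowest in the DN4 library of WT48.

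Every member was expressed. Counts per library ran from 32 for Pars2 in the shallowest library to 8005 for Vars, and all 37 passed the filter on low counts in each comparison. Per kilobase of the principal transcript, the scale on which genes can be set beside each other, the 14 highest were all cytosolic. Kars, the lysyl enzyme (ENSMUSG00000031948.13, chr8:111993443-112011323 on the minus strand of GRCm38), was the highest by the mean over all libraries, with 140.1 ± 10.9 CPM per kilobase in Wt DN3 (SD, n = 3), 114 ± 13.3 in Wt DN4 (SD, n = 4), 138 ± 16.1 in KO-labelled DN3 and 112 ± 21.02 in KO-labelled DN4 (SD, n = 3 each). Vars, the valyl enzyme, was next by that mean and above Kars in KO-labelled DN4, with 134 ± 11.9, 108 ± 14.02, 131 ± 1.81 and 119 ± 22.6 CPM per kilobase in the same order of groups. In each group these top genes differed by less than the larger of their SDs. Dars, for aspartate, came next with 102 ± 2.53 and 76.7 ± 8.51 in Wt DN3 and DN4 and 111 ± 12.5 and 72.3 ± 11.4 CPM per kilobase in KO-labelled DN3 and DN4.

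At the low end stood Wars2, Nars2 and Mars2, the mitochondrial tryptophanyl, asparaginyl and methionyl enzymes. Wars2 had 3.22 ± 0.548 CPM per kilobase in Wt DN3, 3.05 ± 0.448 in Wt DN4, 3.25 ± 0.201 in KO-labelled DN3 and 3.14 ± 0.711 in KO-labelled DN4 libraries. Nars2 had 5.80 ± 1.55, 3.34 ± 0.57, 4.90 ± 0.366 and 3.67 ± 0.659, and Mars2 had 5.16 ± 1.03, 3.77 ± 0.424, 5.07 ± 0.631 and 3.90 ± 0.372 CPM per kilobase. Nars2 and Mars2 overlapped within their SD in every group, and Wars2 and Nars2 overlapped in the DN4 groups but not in the DN3 groups. Tarsl2 was the lowest cytosolic gene, with 5.72 ± 0.107 CPM per kilobase in Wt DN3, and Tars2, for mitochondrial threonine, was the highest mitochondrial gene, with 44.2 ± 1.43. With the length of all annotated exons in place of the principal transcript, Vars ranked above Kars, Tarsl2 was the lowest gene, Mars2 left the lowest 3 (rank 32), Aars2, Hars2 and Vars2 passed Tars2, and Eprs fell from rank 10 to rank 21, since the annotated exons of Eprs sum to 18.1 kilobases against 4.91 in its principal transcript. Across the 37 genes the coefficient of variation between mice had a median of 8.75% in Wt DN3, 8.29% in Wt DN4, 9.97% in KO-labelled DN3 and 13.9% in KO-labelled DN4 libraries.

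**Figure D1:**
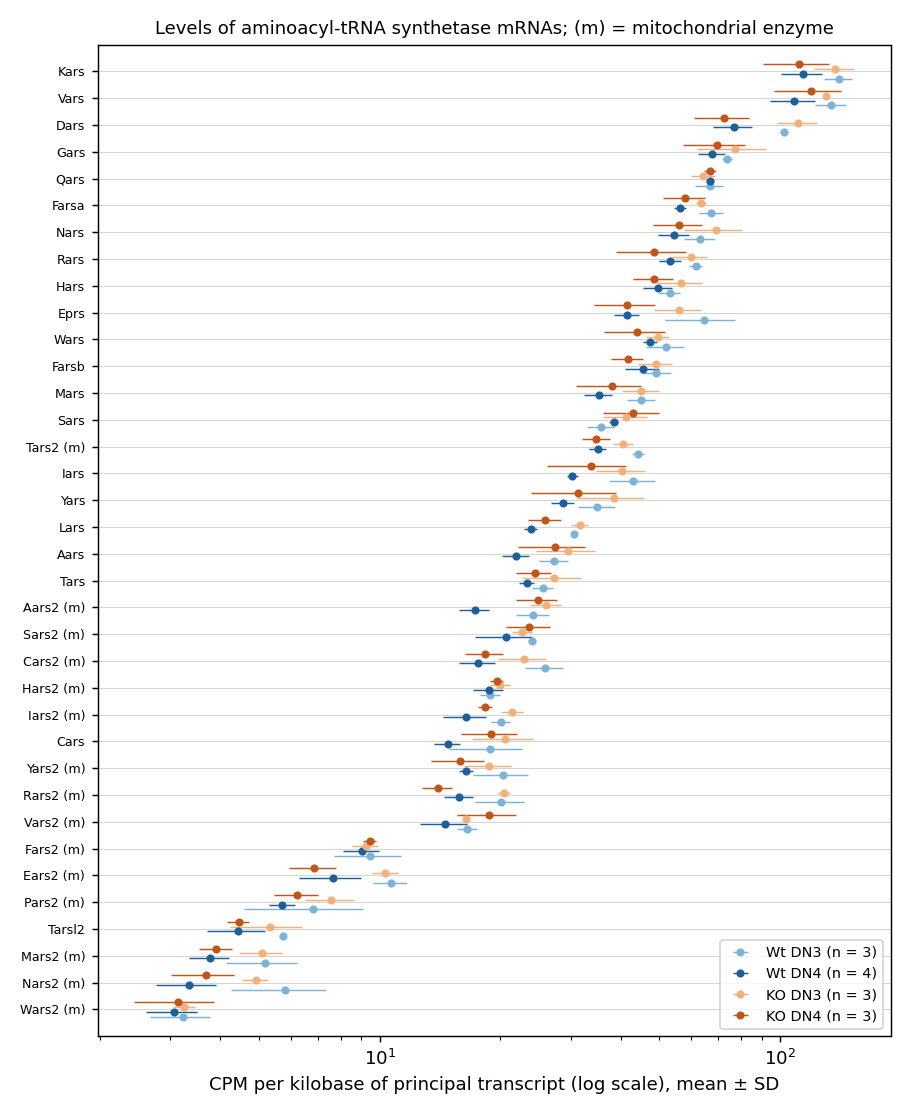
Levels of 36 synthetase mRNAs, in CPM per kilobase of principal transcript on a log axis, as mean ± SD over the libraries of each of the 4 groups, ordered by the mean over all libraries; (m) marks mitochondrial enzymes. The 14 highest genes are cytosolic, and Wars2, Nars2 and Mars2 are the lowest.

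For 16 amino acids the table holds both a cytosolic and a mitochondrial enzyme, with Eprs as the cytosolic one for both glutamate and proline, which gives 16 pairs. The cytosolic mRNA was the higher per kilobase in 14 pairs by the mean over libraries, and in 13 pairs in every library. Its excess was large for tryptophan (Wars over Wars2, a mean ratio of 15.5 with a range of 10.3 to 19.7 over the 13 libraries) and asparagine (14.6, range 7.49 to 21.2). Alanine was near even, with a mean ratio of Aars over Aars2 of 1.18 and a range of 0.772 to 1.42. Cysteine (Cars over Cars2) had a mean ratio of 0.885 with a range of 0.575 to 1.26, and threonine (Tars over Tars2) one of 0.655 with a range of 0.548 to 0.748, the single pair with the mitochondrial mRNA higher in every library. The order of those last pairs rests on the length used, because with all annotated exons the ratios were 1.61 and 1.28 and the cytosolic mRNA was the higher in all 16 pairs.

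From DN3 to DN4 in Wt mice, 9 of the 37 members fell and 0 rose at an adjusted p under 0.05 (edgeR's quasi-likelihood test, Benjamini-Hochberg adjustment over 12691 genes), 5 of the 21 cytosolic (Eprs, Iars, Dars, Lars and Mars) and 4 of the 16 mitochondrial (Nars2, Cars2, Aars2 and Tars2). Over all genes tested, 9.43% fell and 22.9% changed in either direction. The fitted log2 fold change was below 0 for 36 members, where 52.7% of all genes lay below 0, and its median was -0.31 over the members and -0.03 over all genes. An unadjusted p under 0.05 was reached by 22 members, all lower in DN4 (16.7% of all genes were lower at that p). Without the DN3 library of WT48 there were 6 cytosolic and 6 mitochondrial ones, and without the DN4 library of WT05 there were 7 of each. For these smaller fits the share of all genes at that p was not computed. In 18 members the 4 DN4 libraries all lay below the 3 DN3 libraries, which held for 15% of all genes; in 0 members did they all lie above, which held for 20% of all genes. In sorted populations a lower share of a type of cell and less RNA per cell cannot be told apart.

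Among the cytosolic members, all 5 that fell are enzymes of the multi-synthetase complex, which has 8; its other enzymes Kars, Rars and Qars had log2 fold changes of -0.32, -0.24 and -0.02. Of the 13 cytosolic enzymes outside it, 0 passed and 6 had an unadjusted p under 0.05. Limma-voom, and TMM factors set without ribosomal RNA-like genes, called the same 5 cytosolic members, and in 5 of the 7 fits that left out a library the cytosolic calls were complex members only. DESeq2's Wald test called 12 members, Aars and Farsa among them. It also called more of all genes, 27.6% (11.4% lower) against 22.9% (9.43% lower) by edgeR. Aars, Farsa and Yars passed in edgeR without the DN3 library of WT05, and Aars and Vars without the DN4 library of WT48. This contrast between complex and other enzymes was not tested. The median log2 fold change was -0.38 over the 8 and -0.25 over the 13.

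Eprs (ENSMUSG00000026615.14, chr1:185363044-185428360, plus strand), the bifunctional glutamyl-prolyl enzyme, stood at 389, 280.4 and 280.5 CPM in the DN3 libraries of WT05, WT46 and WT48 and at 219, 197, 213 and 187 CPM in the DN4 libraries of WT05, WT40, WT46 and WT48. All DN4 values were below all DN3 values, and the DN3 library of WT05 was the highest. Its log2 fold change was -0.66 (SE 0.143, adjusted p = 0.012). Iars, for isoleucine (chr13:49682100-49734267, plus strand), had 217, 166 and 188 CPM in DN3 and 135, 128, 135 and 138 CPM in DN4 libraries, in the same order of mice. The groups were again apart, with a log2 fold change of -0.53 (SE 0.113, adjusted p = 0.0111). Dars (ENSMUSG00000026356.15, chr1:128363707-128417368, minus strand) had 218, 221 and 229 CPM in DN3 and 176, 176, 176 and 139 CPM in DN4 libraries. Here 3 of the DN4 mice were nearly identical and WT48 lay below them, and the log2 fold change was -0.44 (SE 0.113, adjusted p = 0.0243). The leucyl enzyme Lars and the methionyl enzyme Mars fell by less, with log2 fold changes of -0.39 (adjusted p = 0.0146) and -0.38 (adjusted p = 0.0366). Exons of Mars overlap those of Ddit3 on the opposite strand, and whether counting used the strand is not given in the sources used here.

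Of the mitochondrial members, Nars2 (ENSMUSG00000018995.12, chr7:96951505-97064758, plus strand) changed the most in the fit of all Wt libraries. It had 28.7, 19.03 and 18.1 CPM in the DN3 libraries of WT05, WT46 and WT48 and 9.58, 12.98, 14.7 and 13.2 CPM in the DN4 libraries of WT05, WT40, WT46 and WT48. WT05 gave both the highest DN3 and the lowest DN4 value, and the log2 fold change was -0.81 (SE 0.222, adjusted p = 0.0318). Without the DN3 library of WT05 it was -0.59 (adjusted p = 0.0607), and Cars2 then changed more, by -0.66. Cars2, the mitochondrial cysteinyl enzyme (chr8:11513977-11550783, minus strand, overlapped by Naxd on the other strand), went from 44.5, 55.1 and 48.01 to 30.3, 34.9, 30.8 and 37.5 CPM, with no overlap of the stages and a log2 fold change of -0.59 (SE 0.133, adjusted p = 0.0144). Aars2, the mitochondrial alanyl enzyme (ENSMUSG00000023938.7, chr17:45506841-45520843, plus strand), went from 73.2, 81.7 and 88.4 to 50.6, 61.4, 60.02 and 59.2 CPM. Its stages were also apart, at a log2 fold change of -0.52 (SE 0.116, adjusted p = 0.0138). Tars2 had a smaller change of -0.36 (SE 0.0927, adjusted p = 0.0248). Sars, the cytosolic seryl enzyme, was the single member fitted above 0, at 0.08 (SE 0.0962).

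These Wt calls depended on the libraries in the fit. Eprs and Iars passed without any one of the 7 libraries; Cars2 did not pass without the DN3 library of WT46 (adjusted p = 0.0666), and Aars2 and Lars did not without the DN3 library of WT46 or that of WT48 (adjusted p up to 0.0645 and 0.0564). Dars was lost without the DN3 library of WT46 or WT48 or the DN4 library of WT05 or WT40 (up to 0.0839), Tars2 without any of these or the DN4 library of WT46 (up to 0.0882), Nars2 without any of 5 libraries, all but the DN3 library of WT48 and the DN4 library of WT46 (up to 0.0838), and Mars without any library (up to 0.128). In total 2 members (Eprs and Iars) passed without the DN3 library of WT46 (14.4% of all genes did) and 4 without that of WT48 (14.6%). Without the DN4 library of WT05 (14.8%) or WT40 (18.7%) there were 5, without that of WT46 7 (19.6%) and without that of WT48 10 (20.4%). Without the DN3 library of WT05 there were 11 (25.7%). Count and share were both lowest without the DN3 library of WT46 and highest without that of WT05. Leaving out the DN4 library of WT48 raised the count from 9 while the share fell from 22.9%. In a fit with the mouse as a block, which drops WT40 and so is to be read against the 5 calls without it, Aars2, Cars2 and Eprs passed (adjusted p = 0.0338, 0.039 and 0.032), and 6.65% of all genes fell. With the B-cell marker level as a covariate, 0 members passed and 5.54% of all genes did. The median over the cytosolic members was then -0.09 and over the mitochondrial ones -0.26. That level was 307 to 447 CPM in Wt DN3 and 1049.5 to 4439.7 CPM in Wt DN4 libraries. This fit therefore cannot tell the marker level from the stage. Without the DN4 libraries of WT05 and WT48, the Wt libraries with the highest B-cell marker level, Cars2 alone passed (adjusted p = 0.0459), and 13.7% of all genes did, against 22.9% with all libraries.

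**Figure D2:**
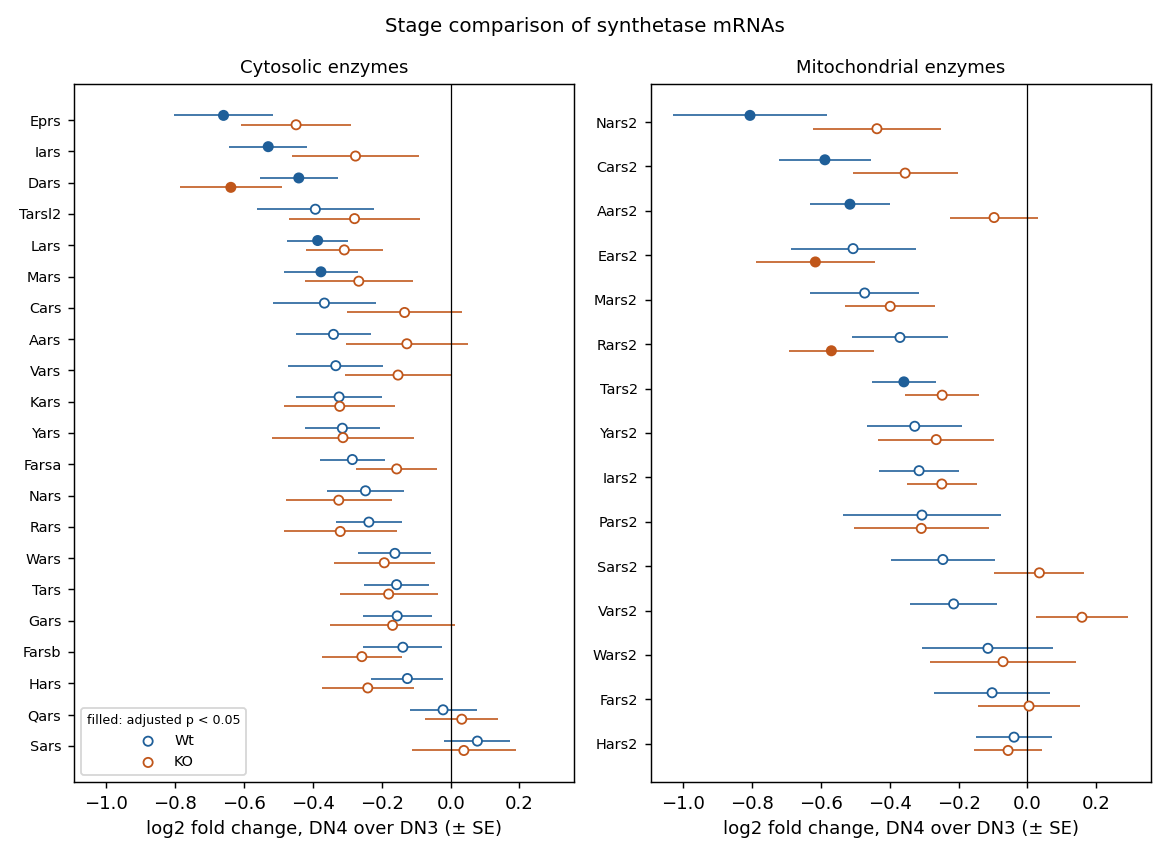
Fitted log2 fold change of DN4 over DN3 for cytosolic (left) and mitochondrial (right) members, with their SE, in Wt (blue) and KO-labelled mice (orange); filled points have an adjusted p under 0.05. In Wt mice all points shown but that of Sars lie below 0 and 9 are filled, and in KO-labelled mice 3 are filled.

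The same stages in KO-labelled mice gave 3 members that fell and 0 that rose at an adjusted p under 0.05, Dars among the 21 cytosolic and Rars2 and Ears2 among the 16 mitochondrial members. Over the 12580 genes tested, 7.34% fell and 18.6% changed, so that this count was close to the share of all genes in this unpaired fit. That does not hold with the mouse as a block, where 17 of the 37 members fell and 18% of all genes did. Without the block, 9 members had an unadjusted p under 0.05, all lower (15% of all genes were lower at that p, and 33% differed in either direction). Without the DN3 library of KO51 there were 2 cytosolic and 3 mitochondrial ones, and there the share of all genes was not computed. In the unpaired fit of all KO-labelled libraries 32 members lay below 0, against 52.5% of all genes. The median log2 fold change was -0.25 against -0.02 over all genes. The DN4 libraries lay wholly below the DN3 libraries in 9 members (16.7% of all genes). By edgeR without the mouse as a block, Dars is the member called in both genotypes, and DESeq2's Wald test called Dars and Eprs in both. With the mouse as a block, Cars2 and Eprs were called in both, and Dars in KO-labelled mice only (adjusted p = 0.076 in Wt, edgeR).

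Dars stood at 216, 270.1 and 238 CPM in DN3 and 129, 168 and 175 CPM in DN4 libraries of KO45, KO49 and KO51, a log2 fold change of -0.64 (SE 0.148, adjusted p = 0.0208, edgeR). Each mouse was lower in DN4 and the stages were apart. Rars2, the mitochondrial arginyl enzyme (ENSMUSG00000028292.14, chr4:34614957-34660167, plus strand), went from 37.6, 37.1 and 39.7 to 26.9, 27.9 and 23.6 CPM, by -0.57 (SE 0.124, adjusted p = 0.0163). Ears2, the mitochondrial glutamyl enzyme (chr7:122037213-122067263, minus strand), went from 22.8, 20.9 and 19.7 to 13.2, 16.2 and 12.7 CPM, by -0.62 (SE 0.174, adjusted p = 0.0433). Both were apart between the stages. In Wt mice Rars2 had 38.3, 31.9 and 42.3 CPM in DN3 and 31.3, 31.7, 28.6 and 26.4 CPM in DN4 libraries (log2 fold change -0.37, adjusted p = 0.0914), and Ears2 had 23.4, 22.7 and 19.4 and 18.3, 11.8, 15.5 and 16.7 CPM (log2 fold change -0.51, adjusted p = 0.0802).

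With the mouse as a block, 17 members fell and 0 rose in KO-labelled mice, 11 cytosolic (Dars, Eprs, Farsb, Hars, Iars, Kars, Lars, Mars, Nars, Rars and Yars) and 6 mitochondrial (Cars2, Ears2, Iars2, Mars2, Rars2 and Tars2), and 18% of all genes fell in that fit. Adjusted p was then 4.74e-04 for Dars, 0.00457 for Rars2 and 0.00942 for Ears2. Without pairing, Dars did not pass without the DN3 library of KO49 or KO51 (adjusted p up to 0.0675), Rars2 without the DN3 library of KO51 (0.0602), and Ears2 without any library other than the DN4 library of KO49 (up to 0.0927). With the B-cell marker level as a covariate, 0 members and 0% of all genes passed. Here too the level was apart between the stages (350 to 414 against 890 to 2824 CPM), so this fit cannot tell it from the stage.

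Within single mice, 22 of the 37 members were lower in DN4 than in DN3 in all 6 mice that gave both libraries, as were 17.6% of 13361 genes, and 0 were higher in all 6, as were 21.9% of those genes. In each of the 6 mice 18 or 19 of the 21 cytosolic members were lower in DN4, where 47.1% to 49% of all genes were, with a median log2 change between -0.40 in WT48 and -0.14 in KO51. For the 16 mitochondrial members, 13 to 14 were lower in the Wt mice and 11 to 13 in the KO-labelled mice, with medians of -0.37, -0.24 and -0.33 in WT05, WT46 and WT48 and -0.26, -0.12 and -0.16 in KO45, KO49 and KO51. Sars was lower in 1 mouse, and Qars, the glutaminyl enzyme, and Wars2 in 2.

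Summed over the members, the cytosolic mRNAs stood at 3532, 3388 and 3516 CPM in the DN3 libraries of WT05, WT46 and WT48 and 2813, 2866, 2992 and 2817 CPM in the DN4 libraries of WT05, WT40, WT46 and WT48. KO-labelled mice had 3108, 3747 and 3616 CPM in DN3 and 2467, 3244 and 3276 CPM in DN4 libraries of KO45, KO49 and KO51. The genotypes overlapped at both stages, and KO45 was the lowest library of its stage in each. The mitochondrial sum was 779.5, 762 and 790.2 CPM in Wt and 765, 757 and 789 CPM in KO-labelled DN3 libraries, which overlapped. In DN4 it was 584, 657, 634 and 643 CPM in Wt and 684, 687 and 707 CPM in KO-labelled libraries, so that every KO-labelled library lay above every Wt library. The summed DN3 markers were above every Wt library in KO45 and KO51 and within the Wt range in KO49 (1235 to 2248 against 802 to 1453 CPM), and their part in the mitochondrial sum was not tested. The ratio of DN4 over DN3 within a mouse was 0.749, 0.831 and 0.814 for the mitochondrial sum in WT05, WT46 and WT48 and 0.893, 0.907 and 0.895 in KO45, KO49 and KO51. The cytosolic ratio, 0.796, 0.883 and 0.801 against 0.794, 0.866 and 0.906, overlapped between the genotypes. These sums are given without a test, and a few abundant genes weigh on them most. In the mitochondrial sum, Aars2 and Vars2 had the largest differences between the genotypes in DN4, with means of 83.2 and 82.8 CPM in KO-labelled against 57.8 and 64.4 CPM in Wt libraries. Of the 16 mitochondrial genes, Aars2 alone had every KO-labelled above every Wt DN4 library, and the other 15 overlapped. The separation of the sum is therefore not a trait of its single genes.

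**Figure D3:**
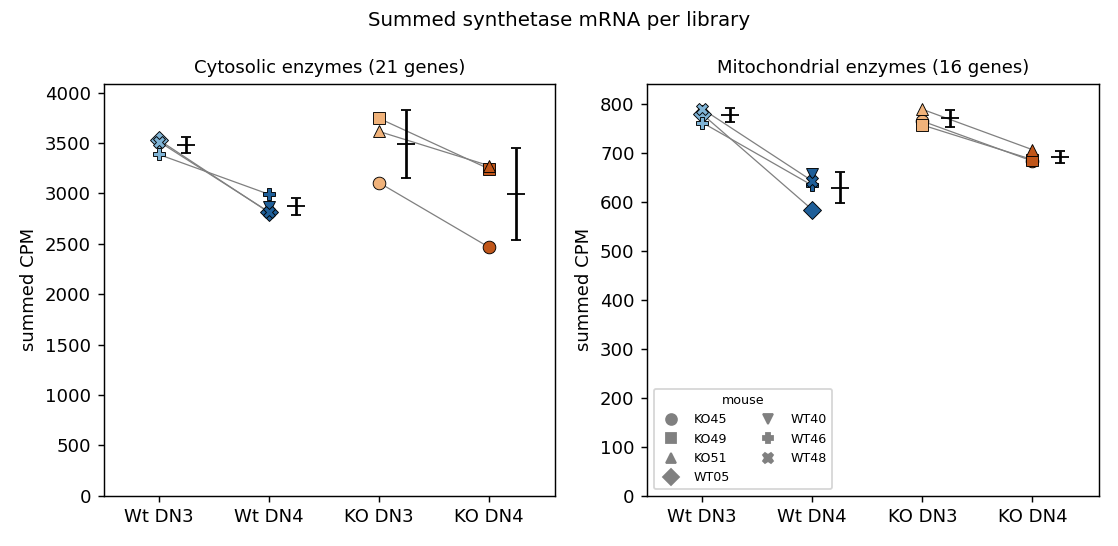
Summed CPM of the 21 cytosolic (left) and 16 mitochondrial (right) members in each library, by group, with a symbol per mouse, grey lines joining the libraries of a mouse, and bars for the mean ± SD (n = 3, or 4 in Wt DN4). Both sums are lower in DN4, and in DN4 the mitochondrial sum of the 3 KO-labelled libraries (684, 687 and 707) lies above that of the 4 Wt libraries. Of the 16 genes in that sum, Aars2 alone is apart by itself and 15 overlap.

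Between KO-labelled and Wt mice in DN4 cells, 0 of the 37 members passed an adjusted p of 0.05 by edgeR's quasi-likelihood test, where 7 of 13084 genes did (0.0535%). At an unadjusted p under 0.05 there were 4 members, all of them higher in KO-labelled libraries, against 2.8% of all genes in that direction and 2.66% in the other (5.46% in either): Aars2, Cars, Aars and Vars2. This count was 9 without the DN4 library of KO45 and 2 without that of KO49, KO51 or WT05. The share of all genes at that p was not computed for these smaller fits. Limma-voom also gave 0 calls and 4 such members, and DESeq2's Wald test gave 1 call, Aars2, and called 0.382% of all genes. Above 0 lay 29 members (49.5% of all genes lay below 0), with a median log2 fold change of 0.09.

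Aars2 had 50.6, 61.4, 60.02 and 59.2 CPM in the Wt DN4 libraries, in the order WT05, WT40, WT46 and WT48, and 92.4, 72.9 and 84.2 CPM in the KO-labelled DN4 libraries, in the order KO45, KO49 and KO51. It was the single member whose KO-labelled libraries all lay above the Wt libraries, as in 2.74% of all genes; 0 members lay wholly below, as did 4.34% of all genes. Its log2 fold change was 0.56 (SE 0.123, unadjusted p = 0.00171, adjusted p = 0.572), and with DESeq2 0.54 (adjusted p = 0.0386); leaving out a library moved the fold change to between 0.46 and 0.66, and it was 0.65 without WT40 and WT46, the mice with 0 to 2 Xist counts. Vars2, the mitochondrial valyl enzyme (ENSMUSG00000038838.15, chr17:35655634-35667592, minus strand), had 96.4, 68.6 and 83.5 CPM in KO-labelled and 55.97, 76.6, 62.3 and 62.6 CPM in Wt libraries, for a log2 fold change of 0.40 (SE 0.157, adjusted p = 0.883). KO45 was its highest library, and WT40 lay among the KO-labelled values.

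Cars, for cytosolic cysteine (chr7:143557230-143600090, minus strand), had 49.97, 67.6 and 65.9 CPM in KO-labelled and 43.2, 47.03, 51.98 and 48.2 CPM in Wt DN4 libraries, a log2 fold change of 0.39 (SE 0.126, adjusted p = 0.856). Aars, for cytosolic alanine (ENSMUSG00000031960.14, chr8:111033144-111057664, plus strand, sharing exonic sequence with Exosc6 on that strand), had 123, 176 and 174 and 115, 122, 129 and 137 CPM, a log2 fold change of 0.35 (SE 0.135, adjusted p = 0.883). In both genes KO49 and KO51 lay above every Wt library, and KO45 lay within the Wt range. A hand-written list of genes known to answer to ATF4 holds 13 cytosolic members. Of these, 12 were fitted above 0 and 0 were called, with a median of 0.15. Of the other 8 cytosolic members, 4 were above 0, with a median of 0.00057. Whether these groups of genes differ was not tested. Summed over the 13, KO45 had 1618 CPM in DN4, below the 1823 to 1924 CPM of the Wt libraries. KO49 and KO51 had 2232 and 2218 CPM, above them. In DN3, 8 of the 13 were fitted above 0, with a median of 0.05.

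**Figure D4:**
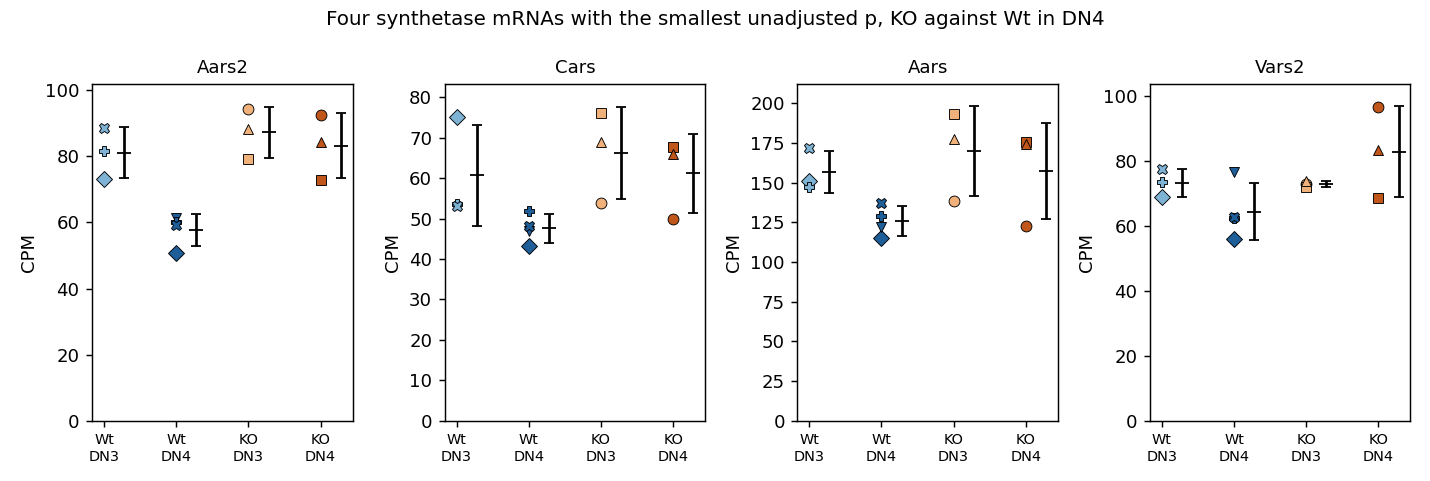
CPM of Aars2, Cars, Aars and Vars2 in each library by group, with a symbol per mouse as in the plot of summed levels and bars for the mean ± SD (n = 3, or 4 in Wt DN4). In DN4 the 3 KO-labelled libraries lie above the 4 Wt libraries for Aars2 (92.4, 72.9 and 84.2 against 50.6, 61.4, 60.02 and 59.2 CPM), and the genotypes overlap for the other genes.

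Start sites of the members were searched for the sequence to which dimers of ATF4 with C/EBP proteins are known to bind, since 12 of the 13 ATF4-linked members were fitted above 0. RefSeq promoters on GRCm38.p6, from 250 bases before to 50 after the start site, were found for 26 members, 13 cytosolic and 13 mitochondrial, and for 7 of the 13 ATF4-linked ones. TGATGNAA, read on both strands, was found for 5 of the 13 cytosolic and 0 of the 13 mitochondrial members, and for 4.51% of all 27025 genes with a window. The matches are shown 5′ to 3′ on the strand of the gene with 8 flanking bases in lower case and the motif, or its reverse complement, in capitals.
Aars, chr8:111033722-111033745, plus strand: cttgagcaTTGCATCAgccgagcc
Aars, chr8:111033843-111033866, plus strand: gggtcactTTTCATCAgagcgctc
Gars, chr6:55037963-55037986, plus strand: ctgcgctaTTTCATCAtgcaccgg
Iars, chr13:49682129-49682152, plus strand: tgtcagtaTTGCATCAcctccaga
Tars, chr15:11399658-11399681, minus strand: gagtcccgTTGCATCAgctggtta
Yars, chr4:129189898-129189921, plus strand: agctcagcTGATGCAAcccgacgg
All 5 genes are on the ATF4-linked list. Aars holds the motif at both 112 bases before and 10 bases past its start site, and the motif of Gars lies 30 and that of Tars 15 bases before it. Between KO-labelled and Wt DN4 libraries the log2 fold changes were 0.35 for Aars (SE 0.135), 0.07 for Gars (SE 0.133) and 0.19 for Iars (SE 0.14). They were 0.10 for Tars (SE 0.0954) and 0.16 for Yars (SE 0.157), and 0 of the 5 were called. For Gars, Iars, Tars and Yars, KO45 lay below every Wt DN4 library, at 132, 112, 86.7 and 66.2 CPM. KO49 and KO51 lay above every Wt DN4 library for all 5 genes. The E-box CACGTG, to which MYC and related factors bind, was found for 4 of the 13 cytosolic members (Aars, Farsb, Iars and Tars) and 1 of the 13 mitochondrial ones (Ears2), and for 8.09% of all genes. CCAAT was found for 12 of the 26 members (41.1% of all genes), the GC box GGGCGG for 19 (38.2%), the ETS core CCGGAAG for 8 (9.93%) and the palindrome bound by NRF1 for 0 (1.07%). These matches describe the sequence only.

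In DN3 cells no member differed between the genotypes beyond the test's threshold. By edgeR 0 of 37 passed and 0 had an unadjusted p under 0.05, where 0% of 12105 genes passed and 1.39% had such a p (0.611% higher and 0.777% lower); DESeq2 and limma-voom gave 0 of 37 on both counts as well. The members lay on either side of 0, 15 above and 22 below (51.1% of all genes were below), with a median log2 fold change of -0.02. The smallest unadjusted p belonged to Sars, with 127, 161 and 154 CPM in KO-labelled and 116, 131 and 136 CPM in Wt DN3 libraries (log2 fold change 0.20, SE 0.14, unadjusted p = 0.188). Cars2 had 49.97, 38.2 and 42.7 CPM in KO-labelled libraries (log2 fold change -0.18, SE 0.153), and Eprs had 232, 303 and 289 CPM (log2 fold change -0.21, SE 0.183), against the Wt values above. Tars2 had 90.96, 101 and 100.4 CPM in KO-labelled and 109, 107 and 102 CPM in Wt libraries (log2 fold change -0.13, SE 0.119), and it was the member whose KO-labelled libraries all lay below the Wt libraries, as 3.34% of all genes did; 0 members lay wholly above, as 3.1% of all genes did. With library totals as the scaling, which the ribosomal RNA-like counts of WT05 enter, Cars2, Eprs and Tars2 were above 0, and so was the median of all genes.

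Whether the stage difference itself differed between the genotypes was tested as an interaction over all 13 libraries. By edgeR 0 of the 37 members passed, as did 0% of 13361 genes, and 1 member had an unadjusted p under 0.05 (3.59% of all genes, 1.58% positive as here and 2.01% negative); DESeq2 and limma-voom gave 0 calls and 1 member at that p. The count was 0 without the DN3 library of KO49 or WT48 or the DN4 library of WT05. It was 2 without the DN3 library of WT05 or the DN4 library of KO49 or WT40. The matching shares of all genes were not computed. In the fit of all libraries that member was Aars2, whose log2 fold change of DN4 over DN3 was -0.52 in Wt and -0.10 in KO-labelled mice (adjusted p = 0.638 in the latter). Its KO-labelled libraries held 94.3, 79.04 and 88.4 CPM in DN3 and the 92.4, 72.9 and 84.2 CPM in DN4 given above, and the interaction was 0.42 on the log2 scale (SE 0.169, unadjusted p = 0.027, adjusted p = 0.99996). Vars2 had 72.7, 71.99 and 73.9 CPM in KO-labelled and 68.8, 73.6 and 77.4 CPM in Wt DN3 libraries, and an interaction of 0.37 (SE 0.189). Sars2, the mitochondrial seryl enzyme, had 44.2, 44.5 and 46.1 CPM in Wt DN3, 29.4, 43.4, 41.1 and 40.5 in Wt DN4, 39.996, 42.4 and 44.8 in KO-labelled DN3 and 37.9, 45.8 and 48.8 in KO-labelled DN4 libraries, an interaction of 0.28 (SE 0.2). Nars2 had 17.7, 17.7 and 20.1 CPM in KO-labelled DN3 and 12.7, 16.7 and 12.2 CPM in KO-labelled DN4 libraries, an interaction of 0.37 (SE 0.293). Above 0 lay 13 of the 16 mitochondrial and 10 of the 21 cytosolic members, and 52.1% of all genes were below 0. With the mouse as a block, the 6 mice with both libraries gave 0 calls and 2 members with an unadjusted p under 0.05, Aars2 at 0.44 and Vars2 at 0.45.

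Around the synthetases, a list of 40 genes that share their work was followed, of which 36 could be tested between the stages in Wt mice and 38 elsewhere. It holds the scaffold of the multi-synthetase complex, editing and quality factors, mitochondrial charging and translation factors, tRNA maturation, selenocysteine synthesis, and the sensors and regulators of amino acid supply. In Wt mice 3 genes fell and 0 rose from DN3 to DN4: Myc, the growth-promoting transcription factor (log2 fold change -0.98, SE 0.191, adjusted p = 0.00755), Ptcd3, a factor of the mitochondrial ribosome (-0.47, adjusted p = 0.0376), and Eefsec, which brings selenocysteyl-tRNA to the ribosome (-0.37, adjusted p = 0.0443). In KO-labelled mice 2 fell and 0 rose, Myc (-0.96, SE 0.232, adjusted p = 0.0248) and Rpp14, a subunit of ribonuclease P, which trims tRNA precursors (-0.59, adjusted p = 0.00711). These counts, 3 of 36 and 2 of 38, were no larger in share than the 9.43% and 7.34% of all genes that fell. The 3 scaffold genes Aimp1, Aimp2 and Eef1e1 had a median of -0.20 in Wt and -0.11 in KO-labelled mice with 0 called.

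Between the genotypes 0 of the 38 tested genes passed in either stage by edgeR, the only test read out for this list. The paper, which used DESeq2, reports Asns among the genes altered in its Opa1-deficient cells. The stress-response genes that follow were picked after their values were seen. Asns, the asparagine synthetase that ATF4 induces, had 0.5, 0.488, 0.71 and 0.406 CPM in the Wt DN4 libraries and 2.36, 11.3 and 8.07 CPM in the KO-labelled DN4 libraries, with the mice in the same orders, so that all KO-labelled libraries were higher (log2 fold change 3.76, SE 0.533, adjusted p = 0.109, edgeR). Its DN3 levels were 5.03, 11.7 and 4.81 CPM in KO-labelled and 1.46, 0.619 and 1.21 CPM in Wt libraries (2.78, SE 0.534, adjusted p = 0.99996). Trib3 and Atf5, also ATF4 targets, had log2 fold changes of 1.76 (adjusted p = 0.427) and 0.57 (adjusted p = 0.832) in DN4. Asns and Trib3 did not pass the filter on low counts among the Wt libraries alone. They entered the genotype comparisons through the KO-labelled libraries, where they are higher, so their values are given as description only. Ddit3 and Sesn2, of the same response, were near 0, at 0.12 (adjusted p = 0.971) and 0.11 (adjusted p = 0.984). Atf4 mRNA itself was 186, 235 and 210.4 CPM in KO-labelled and 221, 192, 207 and 222 CPM in Wt DN4 libraries, which overlapped.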

How the data were processed

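From stranded mRNA libraries the authors made the counts with Cutadapt for trimming, STAR for mapping and featureCounts for counting per gene; the submitters' processing notes name mm10. The deposited values are raw whole-number counts for 47937 genes in 13 libraries; the annotation release and strand setting are not given in the sources used here. Of the gene identifiers, 47310 matched GENCODE M21 (GRCm38) without their version, which gave symbols, coordinates and principal transcript lengths.

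For each comparison, the libraries of its groups alone entered edgeR 4.0.16 (R 4.3.3, quasi-likelihood test), with filterByExpr at a minimum count of 10 and TMM scaling; p-values were adjusted by Benjamini-Hochberg over all genes tested, with a threshold of 0.05, and members were then read out. Levels are CPM; lengths of all annotated exons were an alternative. The scripts were tested on simulated data. Members, lists and tests were chosen with earlier results of these data known. Named with values in every library are the called members with the largest fold change (up to 6 per stage comparison), the 4 members with the smallest p where 0 passed, and, per kilobase, the 3 highest and 3 lowest.

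DN3 and DN4 libraries of a mouse share an animal. Their deviations from the group means correlated over 13361 genes at 0.164 for WT05, 0.123 for WT46, 0.185 for WT48, 0.495 for KO45, 0.226 for KO49 and 0.366 for KO51, so the mouse numbers pair the libraries. No libraries of a group were duplicates. The single values of 1 synthetase gene, and 1 further marker gene, are not reported here. Alternatives were DESeq2 1.42.0 size factors, library totals, TMM without ribosomal RNA-like genes, other filters, DESeq2's Wald test, limma-voom (limma 3.58.1), a single fit, each library left out, other thresholds and the mouse as a block. Chosen after seeing the data were the B-cell marker covariate, leaving out libraries rich in B-cell markers or both of KO45, and the exon length. No mouse gave more than 1 library per stage, so p-values measure the spread between mice, and in the block fits that of the within-mouse differences.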

Additional observations from a re-analysis of the deposited data

Results flagged for a closer look

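In the group of 4 libraries, Wt DN4, each member and both sums (39 values) were checked for a library far from the others; chance flags about 1 in 20 such values, and 2 were found. Dars was 139 CPM in the DN4 library of WT48, below 176.0 to 176.4 CPM in the other Wt DN4 libraries. Yars2, the mitochondrial tyrosyl enzyme, was 24.3 CPM in the DN4 library of WT05 against 26.2 to 26.6 CPM in the others. WT48 also had the highest B-cell marker level; the part of this in the value of Dars was not tested.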

How the results depend on the processing

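Median log2 fold changes of cytosolic and of mitochondrial members stayed below 0 between the stages in both genotypes under every alternative run. Between the genotypes in DN4 they stayed above 0, from 0.013 to 0.164 (cytosolic) and 0.046 to 0.13 (mitochondrial), and in DN3 they changed sign. Counts of calls were less stable. With library totals, which moved the median of all genes from -0.03 to 0.16 in Wt mice, 0 cytosolic and 0 mitochondrial members passed between the stages in Wt. In that fit 14% of all genes passed, from 22.9%. Between the genotypes in DN3, library totals turned Cars2, Eprs and Tars2 to 0.038, 0.089 and 0.12, while the median of all genes was 0.23. Without a filter beyond 1 count, 2 cytosolic members passed in Wt and 1 mitochondrial member in KO-labelled mice (12.9% and 13.7% of all genes, from 22.9% and 18.6%). The mouse as a replicate block gave 1 cytosolic and 2 mitochondrial calls in Wt and 11 and 6 in KO-labelled mice, and left the count of the interaction at 0; it was not run for the genotype comparisons, whose mice differ. With the B-cell marker covariate, whose level is itself apart between the stages, all 4 counts were 0. Without the DN4 libraries of WT05 and WT48 the counts were 0 and 1 in Wt. Leaving out both libraries of KO45 gave 2 cytosolic and 0 mitochondrial calls in KO-labelled mice (14.9% of all genes). At an adjusted p under 0.1 there were 9 and 8 calls in Wt (30.9% of all genes) and 3 cytosolic and 3 mitochondrial ones in KO-labelled mice (26.2%), and at a log2 fold change of at least 1 there were 0 of either kind in both (13.6% and 11%). DESeq2's Wald test gave 2 cytosolic calls in KO-labelled mice, where it called 23.4% of all genes (9.39% lower) against 18.6% (7.34% lower) by edgeR. Between the genotypes in DN4 it gave 1 member, and 0.382% of all genes. Leaving out single libraries gave 2 to 7 cytosolic and 0 to 4 mitochondrial calls in Wt, 0 to 1 and 0 to 2 in KO-labelled mice, and 0 for the genotype comparisons and the interaction. Scaled by library totals without ribosomal RNA-like genes, the mean mitochondrial sum of KO-labelled mice was 828.7 CPM in DN3 and 729 CPM in DN4 in place of 771 and 692; in DN4 it stayed above every Wt library. The cause of these shifts was not tested. Tarsl2 counted as mitochondrial changed no count.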

Other observations

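Cytosolic and mitochondrial members varied apart in KO45. Of the 21 cytosolic members, KO45 was the lowest of the 3 KO-labelled mice for 18 in DN3 and 19 in DN4, and for 17 in both stages. Of the 16 mitochondrial members it was lowest for 5 and 7, and for 4 in both. How often KO45 was the lowest over all genes was not computed, so these counts have no background and are descriptive. The ratio of the cytosolic to the mitochondrial sum was 4.06 and 3.61 in the DN3 and DN4 libraries of KO45 and 4.37 to 4.95 in the other 11 libraries. The summed level of 7 markers of later thymocytes (Cd2, Cd4 and Cd8a among them) was 3766 CPM in the DN4 library of KO45 and 860 to 2466 CPM in the other DN4 libraries; its part in the cytosolic levels was not tested.

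By catalytic fold, 5 of 18 class I and 4 of 19 class II members fell from DN3 to DN4 in Wt mice, with median log2 fold changes of -0.35 and -0.25. Vars, the member with the highest counts, split the mice: its log2 change from DN3 to DN4 was -0.54 in WT05, -0.25 in WT46 and -0.47 in KO45, and 0.012 in WT48, 0.014 in KO49 and 0.0055 in KO51.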
